A study of Mus musculus with 4 samples.

Results

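Transcripts of 10 neuronal and progenitor splicing regulators (Ptbp1, Ptbp2, Nova1, Nova2, Rbfox1, Rbfox2, Rbfox3, Srrm4, Qk and Mbnl2) were followed in single cells of the embryonic mouse brain. The genes were chosen by symbol. They took 11 of the 27998 gene rows of the short-read matrix, since Nova2 has 2 rows of which the second held no count, and 37 of the 31986 isoforms of the long-read tables. The other 9 genes have isoform rows, and Nova2 has none in the tables used here. The cells were taken at E18 from C57BL/6 mouse brain (cortex, hippocampus and the sub ventricular zone combined), with no treatment or genetic change named in the labels. They were captured on the 10x Chromium system. Cells were divided into aliquots of 190 and 951 cells, and the cDNA of each was read both by Illumina, which gives unique molecular identifiers (UMIs) per gene, and by Nanopore, which gives UMIs per isoform, so that there were 4 libraries. The 2 aliquots are technical replicates of a single preparation, and no p-value below covers the spread between animals. The main tests rest on the spread between the aliquots within a class or platform. Where a fit takes the aliquot as a block, the difference that all sums of an aliquot share is set aside. Paired values are given in the order 190-cell aliquot, then 951-cell aliquot.

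These proteins bind pre-mRNA beside alternative exons and decide which exons are kept. PTBP1 represses neuronal exons in progenitor and non-neural cells, and its paralogue PTBP2 takes over as neurons are born; the Rbfox, Nova and Srrm4 proteins promote neuronal exons, while Quaking (Qk) is known from neural progenitors and glia and the muscleblind proteins (Mbnl) from the shift to mature splicing. Many of these genes are themselves alternatively spliced, and several regulate their own exons or those of a paralogue.

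After removal of cells with fewer than 1400 Illumina genes, 186 and 935 cells remained, with 1809081 and 8295650 Illumina UMIs and 993220 and 4889148 Nanopore isoform UMIs. Clustering on other genes, with the 10 genes and the listed splicing regulators left out of the variable genes, gave 8 classes named after fixed markers: radial glia (20 and 87 cells), cycling radial glia (24 and 94), intermediate progenitor (10 and 41), immature glutamatergic (37 and 195), mature glutamatergic (43 and 236), immature GABAergic (31 and 142), mature GABAergic (17 and 127) and Cajal-Retzius cells (4 and 13). Each name means the type whose markers scored best in a cluster, with at least 3 of them raised. The match was weakest in a mature glutamatergic cluster of 142 cells, where 3 of 10 markers were raised. The mean log2 difference of those markers from all other cells was -0.03 there, against -0.20 for the immature glutamatergic markers. The cycling radial glia markers were all genes of proliferation, so that the name of that class does not test radial glial identity. Their mean log2 difference was 3.24 in its cluster, and the next best were the immature GABAergic markers at 0.59. The immature GABAergic class was led by Ebf1, Isl1 and Zfhx3, known from striatal projection neurons, and the mature one by Sst, Maf, Nxph1 and Npy, known from interneurons, so that these were different kinds of GABAergic neuron and not stages of a single lineage. The glutamatergic classes each joined 2 clusters, with different leading genes, so that subtypes were not matched there either. The classes rest on counts of the same cells and are not independent of the levels compared. The border between radial glia and intermediate progenitors was the least stable. Of all cells, 96.6% kept their class when the regulators were allowed among the variable genes and 90.3% at a clustering resolution of 0.6. In these settings the radial glia class went from 107 cells to 72 and 69, and the intermediate progenitor class from 51 to 84 and 88. The intermediate progenitor class of 51 cells was led by Tac2, Pcp4 and Ulk4. The mean log2 difference of its own markers was 1.28, against 0.93 for the immature glutamatergic markers. With the regulators allowed, the class of 84 cells was led by Eomes, Neurog2 and Tac2, at 2.07 against 0.41. At resolution 0.6 a cluster of 71 cells could not be named. Between aliquots, 12 barcodes of kept cells were shared. The class of 107 radial glia held 11 cells with at least 5 UMIs of markers of other cell types, with oligodendrocyte precursor markers in 4, microglial in 3, pericyte in 4 and endothelial in 1 (100, 353, 109 and 18 UMIs in the class), where a cell can count under several types. Cycling radial glia held 7 such cells of 118, all with oligodendrocyte precursor markers (203 UMIs), and the other 6 classes held none. Haemoglobin transcripts were present at 297 to 382 CPM (the scale defined with the levels) in all 8 classes and did not count among these markers. Results without the shared barcodes and without the 18 marker-bearing cells are given where they changed a call.

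Exons, extensions and coding tails on which the Nanopore shares below rest are shown as sequence. The 34-base exon of Ptbp1 and the 40-base exon of Rbfox1 are shown for comparison with their paralogues and have no share of their own, and the 40-base exon of Rbfox3 is the part that its 141-base extension lengthens. Each is printed 5′ to 3′ on the strand of the gene, read from the Gencode transcripts of the mm10 (GRCm38) build. The exon, extension or tail is in capitals, with the 10 adjoining transcript bases on each side in lower case. The Qk tails have only the upstream bases. After an extension, the lower-case bases belong to the exon that it lengthens. All stretches in capitals lie in coding sequence.
Ptbp1 78-base exon (chr10:79860117-79860194, plus strand): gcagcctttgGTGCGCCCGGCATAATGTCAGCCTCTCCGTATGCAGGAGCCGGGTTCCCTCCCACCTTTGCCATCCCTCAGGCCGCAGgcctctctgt
Ptbp2 34-base exon (chr3:119724612-119724645, minus strand): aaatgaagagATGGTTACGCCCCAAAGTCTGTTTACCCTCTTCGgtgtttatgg
Ptbp1 34-base exon (chr10:79862014-79862047, plus strand): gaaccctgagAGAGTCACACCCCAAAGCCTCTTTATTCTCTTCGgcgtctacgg
Rbfox2 40-base exon (chr15:77094451-77094490, minus strand): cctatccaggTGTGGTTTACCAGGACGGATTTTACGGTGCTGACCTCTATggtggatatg
Rbfox1 40-base exon (chr16:7363865-7363904, plus strand): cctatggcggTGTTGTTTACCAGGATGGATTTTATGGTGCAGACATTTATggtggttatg
Rbfox3 40-base exon (chr11:118496351-118496390, minus strand): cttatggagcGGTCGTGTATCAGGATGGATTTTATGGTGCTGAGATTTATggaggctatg
Rbfox3 141-base extension (chr11:118496391-118496531, minus strand): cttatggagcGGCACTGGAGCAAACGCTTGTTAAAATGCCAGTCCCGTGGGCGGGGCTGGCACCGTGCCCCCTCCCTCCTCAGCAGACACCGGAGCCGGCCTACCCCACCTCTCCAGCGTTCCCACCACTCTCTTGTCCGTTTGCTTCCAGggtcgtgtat
Rbfox2 43-base exon (chr15:77091812-77091854, minus strand): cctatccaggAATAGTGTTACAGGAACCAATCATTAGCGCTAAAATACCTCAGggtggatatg
Rbfox2 12-base extension (chr15:77098073-77098084, minus strand): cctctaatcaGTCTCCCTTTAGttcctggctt
Qk-201 coding tail (chr17:10215434-10215474, minus strand): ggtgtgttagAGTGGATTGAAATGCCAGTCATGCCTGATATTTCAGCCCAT
Qk-202 coding tail (chr17:10214172-10214194, minus strand): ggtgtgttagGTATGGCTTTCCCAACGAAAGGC
Mbnl2 54-base exon (chr14:120395712-120395765, plus strand): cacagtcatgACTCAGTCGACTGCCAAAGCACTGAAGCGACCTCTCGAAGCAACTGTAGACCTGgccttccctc
Mbnl2 36-base exon (chr14:120403336-120403371, plus strand): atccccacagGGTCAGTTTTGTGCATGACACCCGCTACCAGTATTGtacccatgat
The 34-base exons of Ptbp2 and Ptbp1 shared 26 of 34 bases (76.5%). In both genes this exon is known to be skipped under the action of PTB proteins, which shifts the reading frame. The 40-base exons of Rbfox2 and Rbfox1 shared 34 of 40 bases (85.0%), as did those of Rbfox1 and Rbfox3, and those of Rbfox2 and Rbfox3 shared 31 (77.5%). The 43-base exon lies at the same place in the Rbfox2 transcript as the 40-base exon and replaces it.

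Levels are given in CPM, Illumina UMIs of a gene scaled to a common total of UMIs in each class. They are used here to compare classes for a gene and not genes with each other. Class sums were compared with the quasi-likelihood test of edgeR over 7 classes, leaving out Cajal-Retzius cells as too few in the smaller aliquot, and p-values were adjusted by the Benjamini-Hochberg method over the 7587 genes tested in each comparison. Of the 10 genes, 9 passed the filter on low counts, and Nova1 did not. Against radial glia, 7 of the 9 were called in mature glutamatergic neurons (5 higher and 2 lower), where 33.8% of all genes were called (16.1% higher, 17.7% lower). In mature GABAergic neurons 8 of 9 were called (6 higher, 2 lower), against 31.2% of all genes (13.8% higher, 17.4% lower), and in intermediate progenitors 5 of 9 (4 higher, 1 lower), against 18.2% (7.5% higher, 10.7% lower). With the aliquot as a block 8, 8 and 5 of the 9 were called in the same order, against 46.8%, 39.9% and 23.4% of all genes.

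**Figure D1:**
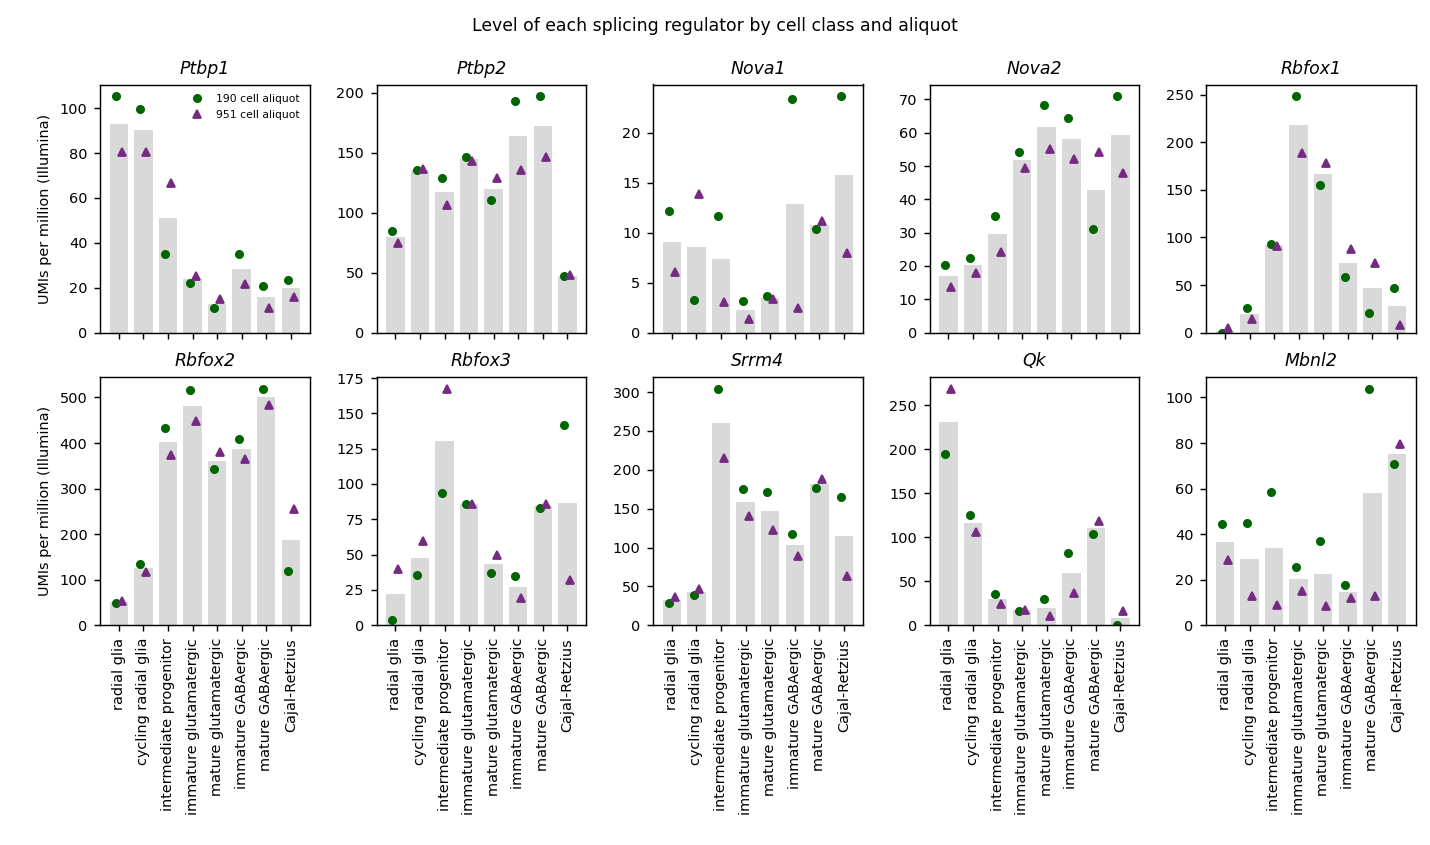
Level of each gene in CPM from Illumina UMIs (y axis, own scale per gene) in the 8 cell classes (x axis); circles are the 190-cell aliquot, triangles the 951-cell aliquot and bars their mean. Ptbp1 and Qk stand highest in radial glia (means of 92.8 and 232), Rbfox1 highest in immature glutamatergic neurons (218) and Srrm4 highest in intermediate progenitors (260).

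Ptbp1, the progenitor form of the polypyrimidine tract repressor, was present in radial glia at 105.3 and 80.3 CPM and in cycling radial glia at 99.8 and 80.5. Intermediate progenitors held 35.1 and 66.9, and the 4 neuron classes lay between 11.1 and 35.1. The lowest mean was that of mature glutamatergic neurons (11.1 and 14.8), whose range overlapped with that of mature GABAergic neurons (20.7 and 11.2). The aliquots of both radial glia classes lay above those of every neuron class, while the ranges of radial glia and cycling radial glia overlapped. Ptbp1 was 6.42-fold lower in mature glutamatergic neurons than in radial glia (log2 fold change -2.68, SE 0.34, adjusted p = 3.88e-08) and 7.47-fold lower in mature GABAergic neurons (-2.90, SE 0.46, adjusted p = 3.71e-06). The difference between intermediate progenitors and radial glia was -0.73 (SE 0.37) and did not pass (adjusted p = 0.190), and neither did those between mature and immature neurons (-0.73 and -1.03, adjusted p = 0.393 and 0.487).

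Ptbp2, the neuronal paralogue, was lowest among the fitted classes in radial glia (85.1 and 74.3 CPM). Cycling radial glia already held 135.2 and 136.1, intermediate progenitors 128.6 and 106.4, and the neuron classes 110.6 to 197.0, with the highest mean in mature GABAergic neurons (197.0 and 146.8). Intermediate progenitors and mature glutamatergic neurons overlapped with each other and lay below cycling radial glia and the other 3 neuron classes. Among those, immature GABAergic neurons overlapped with the rest, while immature glutamatergic neurons (146.5 and 142.9) lay between cycling radial glia and mature GABAergic neurons without overlap. Cajal-Retzius cells were at 47.3 and 47.9, on 2 and 6 UMIs. Against radial glia, Ptbp2 was 1.55-fold higher in mature glutamatergic neurons (log2 fold change 0.63, SE 0.22, adjusted p = 0.0234) and 1.90-fold higher in mature GABAergic neurons (0.92, SE 0.24, adjusted p = 0.00310). The first of these calls was lost under DESeq2 (adjusted p = 0.198), with Nanopore sums (0.116) and without the 951-cell aliquot (0.586), and the second without the 951-cell aliquot (0.166).

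Rbfox1 is a neuronal splicing factor of the Fox family. Radial glia held 0 and 5 UMIs, or 0 and 4.32 CPM, and cycling radial glia 25.8 and 13.9 CPM. Intermediate progenitors held 93.5 and 91.2, immature glutamatergic neurons 248.4 and 188.4 and mature glutamatergic neurons 154.8 and 178.5, whereas immature GABAergic neurons held 58.5 and 88.4 and mature GABAergic neurons 20.7 and 73.4. Both aliquots of the glutamatergic classes lay above those of the other 6 classes. Rbfox1 was higher than in radial glia in mature glutamatergic neurons (log2 fold change 5.51, SE 0.43, adjusted p = 1.12e-12), in intermediate progenitors (4.52, SE 0.54, adjusted p = 8.68e-08) and in mature GABAergic neurons (3.99, SE 0.53, adjusted p = 2.92e-07), each fold resting on the 5 UMIs of radial glia. With the regulators among the variable genes the differences were 7.25, 5.62 and 5.71 in the same order. Without the 951-cell aliquot they were 9.30, 8.83 and 6.598, and the last did not pass (adjusted p = 0.160), where radial glia of the 190-cell aliquot held no UMI.

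Rbfox2, the broadly expressed member, rose at the step from radial glia to intermediate progenitors. Its level was 48.6 and 54.4 CPM in radial glia, 135.2 and 117.2 in cycling radial glia, 432.5 and 373.8 in intermediate progenitors and 342.9 to 518.5 over the 4 neuron classes. These 4 classes did not overlap with either class of radial glia, whereas Cajal-Retzius cells (118.2 and 255.2, on 5 and 32 UMIs) reached into the range of cycling radial glia. Immature glutamatergic (516.0 and 448.5) and mature GABAergic neurons (518.5 and 483.5) overlapped with each other and lay above intermediate progenitors, and immature GABAergic (409.4 and 365.6) and mature glutamatergic neurons (342.9 and 379.5) overlapped with intermediate progenitors and lay below the first pair. The log2 fold change against radial glia was 2.78 in intermediate progenitors (SE 0.22, adjusted p = 3.58e-12), 2.77 in mature glutamatergic neurons (SE 0.21, adjusted p = 1.82e-13) and 3.10 in mature GABAergic neurons (SE 0.22, adjusted p = 4.31e-14), a 6.84-fold to 8.58-fold difference. These 3 calls held under all 11 alternatives, with adjusted p-values up to 1.77e-08, 7.62e-08 and 1.37e-07 in the order glutamatergic, GABAergic, intermediate progenitor. They were larger in Nanopore gene sums, which add up the isoform-assigned UMIs of a gene, with 3.45, 4.02 and 3.85 in the same order.

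Rbfox3 encodes the neuronal nuclear antigen NeuN. Among the fitted classes its mean was highest in intermediate progenitors (93.5 and 167.2 CPM), followed by immature glutamatergic neurons (86.0 and 85.6) and mature GABAergic neurons (a mean of 84.6, with 86.2 in the 951-cell aliquot). Cajal-Retzius cells gave 141.9 and 31.9 on 6 and 4 UMIs. Mature glutamatergic neurons held 36.9 and 49.9, immature GABAergic neurons 35.1 and 19.4, cycling radial glia 35.4 and 59.6 and radial glia 4.05 and 39.7, so that mature glutamatergic neurons lay within the range of cycling radial glia, immature GABAergic neurons lay below both, and the spread of radial glia between aliquots held the immature GABAergic values and reached the others. It was higher than in radial glia in intermediate progenitors (log2 fold change 2.11, SE 0.42, adjusted p = 0.000654) and in mature GABAergic neurons (1.35, SE 0.42, adjusted p = 0.0153). In mature glutamatergic neurons the difference was 0.56 (SE 0.38, adjusted p = 0.287). This value changed with the class border. With the regulators among the variable genes it was 2.60 (adjusted p = 8.79e-05), and at resolution 0.6 it was 2.57 (7.77e-05). With the classes unchanged but without the 951-cell aliquot it was 3.11, where radial glia of the 190-cell aliquot held 1 Rbfox3 UMI. The other differences moved as well and stayed called. With the regulators among the variable genes they were 3.9998 in intermediate progenitors and 3.40 in mature GABAergic neurons. Without the 951-cell aliquot they were 4.29 and 4.07, again against that 1 UMI. At resolution 0.6 the intermediate progenitor class was led by the microglial genes Ccl4, Ccl3 and C1qc, so that counts of called genes for that class at this resolution are not those of progenitors alone.

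Nova2, which directs neuronal exons, rose from 20.3 and 13.8 CPM in radial glia and 22.5 and 17.9 in cycling radial glia to 68.2 and 55.1 in mature glutamatergic neurons. Intermediate progenitors (35.1 and 24.3) lay between, and immature glutamatergic (54.1 and 49.4), immature GABAergic (64.3 and 52.1) and mature GABAergic neurons (31.1 and 54.3) overlapped with mature glutamatergic neurons or with each other. Against radial glia the log2 fold change was 1.95 in mature glutamatergic neurons (SE 0.37, adjusted p = 5.45e-05) and 1.56 in mature GABAergic neurons (SE 0.43, adjusted p = 0.00406). Without the 951-cell aliquot these had adjusted p-values of 0.0657 and 0.871 (log2 fold changes of 1.74 and 0.39), and the second was 0.0784 under DESeq2. Nova1, its paralogue, gave 14 and 43 UMIs over all cells, at most 14 in a class and aliquot, and ranged from 1.32 to 23.7 CPM with no class apart from the others in both aliquots.

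Srrm4, an activator of neuronal microexons, was highest in intermediate progenitors (303.9 and 215.8 CPM, on 26 and 71 UMIs), above the other 7 classes in both aliquots. It was lowest in radial glia (28.4 and 36.3) and cycling radial glia (38.6 and 46.7). Mature GABAergic neurons held 176.3 and 188.3, immature and mature glutamatergic neurons 122.7 to 175.2 and immature GABAergic neurons 117.0 and 89.6. The log2 fold change against radial glia was 2.70 in intermediate progenitors (SE 0.28, adjusted p = 1.97e-09), 2.31 in mature GABAergic neurons (SE 0.27, adjusted p = 1.62e-08) and 2.05 in mature glutamatergic neurons (SE 0.26, adjusted p = 3.14e-08). All 3 were larger with the regulators among the variable genes (3.66, 3.60 and 3.36), and those of the mature classes were 3.62 and 3.24 at resolution 0.6. With the regulators among the variable genes, intermediate progenitors and mature GABAergic neurons thus differed little (3.66 and 3.60). Srrm4 was not tested between intermediate progenitors and neurons.

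Qk, which encodes Quaking, had the opposite order at its top. Radial glia held 194.5 and 268.6 CPM and cycling radial glia 125.6 and 106.3, against 35.1 and 24.3 in intermediate progenitors, 15.9 and 17.8 in immature glutamatergic and 29.5 and 10.4 in mature glutamatergic neurons. Mature GABAergic neurons, at 103.7 and 118.1, overlapped with cycling radial glia and stood above the 3 other neuron classes, with immature GABAergic neurons at 81.9 and 36.3. Qk was 16.0-fold lower in mature glutamatergic neurons than in radial glia (log2 fold change -4.00, SE 0.32, adjusted p = 2.61e-11) and 9.66-fold lower in intermediate progenitors (-3.27, SE 0.42, adjusted p = 1.14e-06). Without the 951-cell aliquot these were -2.71 and -2.65, without the 190-cell aliquot the first was -4.65, and with Nanopore sums the second was -2.55, all still called. The difference of mature GABAergic neurons from radial glia was -1.18 (SE 0.29, adjusted p = 0.00234). That call was lost under DESeq2 (adjusted p = 0.0514), with Nanopore sums (-0.13, adjusted p = 0.884) and without the 951-cell aliquot (0.2503). Of the 359 Qk UMIs in radial glia, 32 lay in the 11 cells with oligodendrocyte precursor, microglial, pericyte or endothelial markers. Every Qk call kept its side without those cells. The 31 radial glia with at least 5 haemoglobin UMIs held 198 of the 359, and a fit without them was not made.

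Mbnl2, a muscleblind protein, differed between the aliquots. Radial glia held 44.6 and 28.5 CPM, mature GABAergic neurons 103.7 and 12.8, intermediate progenitors 58.5 and 9.12 and mature glutamatergic neurons 36.9 and 8.50. The 190-cell aliquot was higher in each of the 7 fitted classes. In the fit with the aliquot as a block, the level in the 951-cell aliquot was 2.84-fold lower (log2 fold change -1.51, SE 0.26, adjusted p = 2.72e-06). That test took the 7 class sums of each aliquot as replicates, although they share a library. Mbnl2 was the only gene of the 9 called for the aliquot, where 5.47% of all genes were called. Mature glutamatergic neurons differed from radial glia by -0.95 (SE 1.03, adjusted p = 0.554) without the block and by -1.19 with it (adjusted p = 0.00472). In mature GABAergic neurons and intermediate progenitors the differences from radial glia were -0.20 and -0.78 (adjusted p = 0.937 and 0.782).

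**Figure D2:**
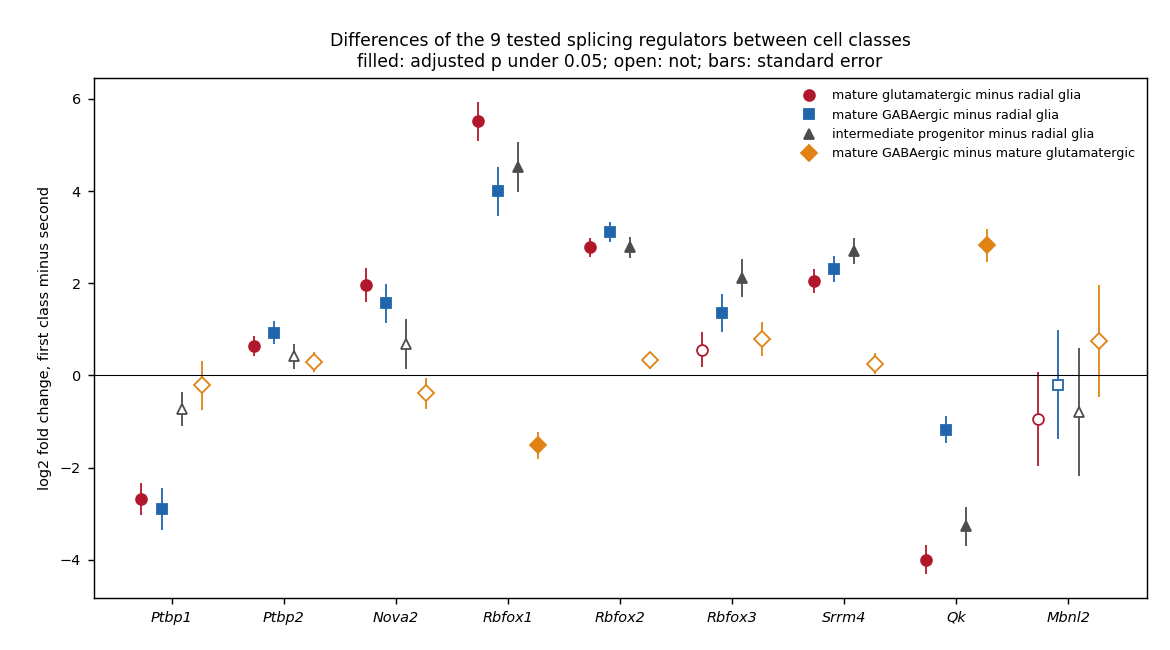
Log2 fold change (y axis, first class minus second) of the 9 tested genes (x axis) in 4 comparisons of Illumina class sums; bars are standard errors and filled symbols have an adjusted p under 0.05. Rbfox1, Rbfox2 and Srrm4 lie between 2.05 and 5.51 against radial glia, Ptbp1 falls to -2.90 in mature GABAergic neurons, and Qk and Rbfox1 differ between mature GABAergic and mature glutamatergic neurons.

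Between the mature and immature neuron classes few of these genes changed. In the glutamatergic classes 0 of 9 were called by edgeR and 0 by DESeq2, with 1 at an unadjusted p under 0.05, against 3.84% of all genes. That gene was Rbfox3, at -0.83 (SE 0.33, adjusted p = 0.215), which passed with the aliquot as a block (-0.79, adjusted p = 0.00372), when 12.0% of all genes were called. Rbfox2, at -0.33 (SE 0.18), was called in 1 of its 11 alternatives, with Nanopore sums. In the GABAergic classes, which hold different kinds of neuron, 1 of 9 was called, against 2.87% of all genes. Rbfox3 was 3.54-fold higher in mature than in immature GABAergic neurons (log2 fold change 1.83, SE 0.48, adjusted p = 0.0327). This call was lost under DESeq2 (0.182), without called doublets (0.0510), without the 190-cell aliquot (2.07, 0.160) and without the 951-cell aliquot (1.00, 0.807). With the block, 3 were called, adding Srrm4 (0.83 without the block, adjusted p = 0.0678, and 0.90 with it, 0.00207) and Qk (1.20, adjusted p = 0.0766, and 1.30, 0.00147), against 6.06% of all genes with it. Kind of neuron and stage cannot be told apart in this comparison.

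The difference of Rbfox3 between the mature and immature class was not the same in GABAergic and glutamatergic neurons. In a contrast added after the values were seen, it was larger in the GABAergic classes by 2.66 (SE 0.58, adjusted p = 0.0107), and 1 of 9 genes was called against 2.16% of all genes. Without the 951-cell aliquot the difference was 2.25 and did not pass (adjusted p = 0.822). With the block 4 were called, adding Rbfox2 (0.59, adjusted p = 0.0347), Srrm4 (0.97, 0.0116) and Qk (1.55, 0.0411), against 5.48% of all genes with it.

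Between mature GABAergic and mature glutamatergic neurons, 2 of 9 genes were called, against 9.45% of all genes. Qk was 7.07-fold higher in the GABAergic class (log2 fold change 2.82, SE 0.36, adjusted p = 1.30e-06) and Rbfox1 2.87-fold lower (-1.52, SE 0.29, adjusted p = 0.000334). Without the 951-cell aliquot the Qk difference was 1.57 (adjusted p = 0.215), and with Nanopore sums it was 3.47. Without the same aliquot the Rbfox1 difference was -3.12, and it passed in all 10 alternatives in which it was tested (adjusted p up to 0.0145). Rbfox3 differed by 0.79 (adjusted p = 0.239), and by 0.74 with the block (adjusted p = 0.0397), when 15.6% of all genes were called. Rbfox2 differed by 0.33 (adjusted p = 0.358) and was called in 1 of its 11 alternatives.

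Nanopore reads placed these transcripts into isoforms. Ptbp1 was assigned mainly to Ptbp1-206 (131 of 209 UMIs, 62.7%; 529 codons) and Ptbp1-216 (70 of 209, 33.5%; 555 codons), which differ by the 78-base exon printed above. Inclusion of this exon is known to strengthen the repressor activity of PTBP1. It was included in 34.8% of the UMIs that could tell (exact 95% interval 28.3 to 41.9%), with 16 of 42 in the 190-cell and 54 of 159 in the 951-cell aliquot. The share was 34.5% in radial glia (20 of 58), 18 of 60 in cycling radial glia, 40.9% in immature glutamatergic neurons (9 of 22) and 13 of 26 in mature glutamatergic neurons (29.9 to 70.1%). These intervals overlapped, and the log2 odds of inclusion differed between mature glutamatergic neurons and radial glia by 0.89 (adjusted p = 0.464 by the likelihood ratio test of edgeR).

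Ptbp2 was assigned to Ptbp2-201 in 387 of 443 UMIs (87.4%; 532 codons). Its 34-base exon, whose skipping is known to mark the transcript for decay, was included in 411 of 420 UMIs (97.9%, 96.0 to 99.0%). Inclusion was complete in cycling radial glia (71 of 71), immature GABAergic (48 of 48) and mature GABAergic neurons (41 of 41), and it was 30 of 32 in radial glia. Intermediate progenitors had the lowest share, at 15 of 18 (83.3%, 58.6 to 96.4%), in which 5 of 7 and 10 of 11 UMIs included the exon. Transcripts degraded before capture were not counted.

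Rbfox2 gave the most isoform UMIs of the set, 1944 in all. Rbfox2-209 took 962 of them (49.5%; 377 codons), Rbfox2-203 721 (37.1%; 381 codons) and Rbfox2-204 192 (9.88%; 449 codons). The first pair differs by the 12-base extension, an acceptor choice, which was used in 913 of 1943 UMIs (47.0%, 44.8 to 49.2%). Its share lay between 43.9% in mature glutamatergic neurons (300 of 683) and 53.5% in intermediate progenitors (61 of 114), apart from Cajal-Retzius cells (13 of 20, 65.0%).

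The 40-base exon of Rbfox2 was included in 1875 of 1924 UMIs that held or skipped it (97.5%, 96.7 to 98.1%). The 43-base exon replaced it in 17 of 1892 UMIs holding one or the other. Of these 17, 11 came from mature GABAergic neurons, where the share was 11 of 223 (4.93%, 2.49 to 8.65%), with 1 of 32 and 10 of 191 by aliquot, against 2 of 664 in mature glutamatergic neurons, 2 of 532 in immature glutamatergic neurons and 2 of 230 in immature GABAergic neurons. Radial glia (0 of 26), cycling radial glia (0 of 87) and intermediate progenitors (0 of 112) held none, and their counts allow shares of up to 11.5%, 3.45% and 2.68%. With at least 10 informative UMIs per class in place of 20, inclusion against skipping of the 43-base exon could be tested between mature GABAergic and mature glutamatergic neurons. UMIs holding the 40-base exon do not enter that test, so that it compared 11 of 22 with 2 of 19 UMIs. The log2 odds differed by 2.78 and did not pass the edgeR likelihood ratio test (unadjusted p = 0.00574, adjusted p = 0.395). The share of the 43-base against the 40-base exon was not tested.

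Rbfox2 is transcribed from first exons whose starts lie 153174 bases apart (chr15:77306928 and chr15:77153754, on the minus strand). The upstream one was used in 223 of 1941 UMIs (11.5%, 10.1 to 13.0%). Its share was 23.0% in cycling radial glia (20 of 87, 14.6 to 33.3%) and 22.2% in radial glia (6 of 27, 8.62 to 42.3%), against 13.2% in intermediate progenitors (15 of 114), 13.1% in mature glutamatergic (89 of 681), 10.7% in mature GABAergic (25 of 234), 8.67% in immature glutamatergic (47 of 542) and 6.78% in immature GABAergic neurons (16 of 236, 3.93 to 10.8%). In cycling radial glia the shares were 8 of 24 and 12 of 63, and in immature GABAergic neurons 4 of 44 and 12 of 192. No test was run on these shares.

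Isoform UMIs of Qk came to 19.3% and 15.8% of its Illumina UMIs, and the shares that follow cover that part only. By class there were 40 isoform against 359 Illumina UMIs in radial glia, 32 against 146 in cycling radial glia and 19 against 84 in mature GABAergic neurons. A smaller part was thus covered in radial glia than in those other classes. These UMIs were divided between Qk-202 (92 of 119 UMIs, 319 codons) and Qk-201 (27 of 119, 325 codons). Gencode labels Qk-202 as subject to nonsense-mediated decay and Qk-201 as protein coding. These labels are annotation only, and whether Qk-202 was degraded or translated was not tested. No other Qk isoform was counted here. Both isoforms share their body and end in the different coding tails printed above. In radial glia Qk-201 made up 26 of 40 UMIs (65.0%, 48.3 to 79.4%), with 3 of 7 and 23 of 33 by aliquot. In all other classes together it was 1 of 79 (1.27%, 0.0320 to 6.85%), a cycling radial glia UMI of the 951-cell aliquot. The 4 neuron classes gave 0 of 45, which allows a share of up to 6.67%, including 0 of 19 in mature GABAergic neurons, whose Illumina Qk levels overlapped with those of cycling radial glia. The 26 UMIs came from 20 cells, and 5 of them lay in cells with markers of other cell types. Mature glutamatergic neurons gave 7 Qk isoform UMIs (1 and 6 by aliquot), all of them Qk-202, which allow a Qk-201 share of up to 42.9%. Qk did not pass the filter of the isoform test. Without that filter its isoform usage was called for mature GABAergic neurons against radial glia (adjusted p = 0.000358) and for mature glutamatergic neurons against radial glia (0.0412), where 1.08% and 2.63% of all 7691 genes were called, and not for intermediate progenitors (1.0), which gave 2 UMIs.

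Rbfox3 was assigned to Rbfox3-204 in 76 of 137 UMIs (55.5%), Rbfox3-206 in 31, Rbfox3-205 in 20 and Rbfox3-201 in 8. An upstream acceptor that adds 141 bases was used in 30 of 137 UMIs (21.9%, 15.3 to 29.8%), with no order from radial glia to neurons. It was used in 4 of 12 UMIs in radial glia, 1 of 13 in cycling radial glia, 4 of 14 in intermediate progenitors, 10 of 37 in immature and 4 of 38 in mature glutamatergic neurons, 1 of 5 in immature and 4 of 15 in mature GABAergic neurons and 2 of 3 in Cajal-Retzius cells. Mbnl2 gave 46 isoform UMIs. Its 54-base exon, known to carry a nuclear localisation signal, was included in 42 of 44 UMIs, and its 36-base exon in 28 of 44 (63.6%, 47.8 to 77.6%). The 36-base exon was included in 3 of 12 UMIs in radial glia (25.0%, 5.49 to 57.2%) and 1 of 5 in cycling radial glia, against 8 of 8 in mature glutamatergic neurons (63.1 to 100%), 3 of 5 in immature glutamatergic, 3 of 4 in mature GABAergic and 3 of 3 in immature GABAergic neurons, 2 of 2 in intermediate progenitors and 5 of 5 in Cajal-Retzius cells. By aliquot it was 1 of 3 and 2 of 9 in radial glia and 3 of 3 and 5 of 5 in mature glutamatergic neurons, counts too low for the exon test. In the isoform usage test without its filter, Mbnl2 did not pass between these classes (unadjusted p = 0.00288, adjusted p = 0.091). Srrm4-201 took 774 of 777 Srrm4 UMIs, Rbfox1-207 22 of 24 Rbfox1 UMIs and Nova1-201 all 5 Nova1 UMIs.

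**Figure D3:**
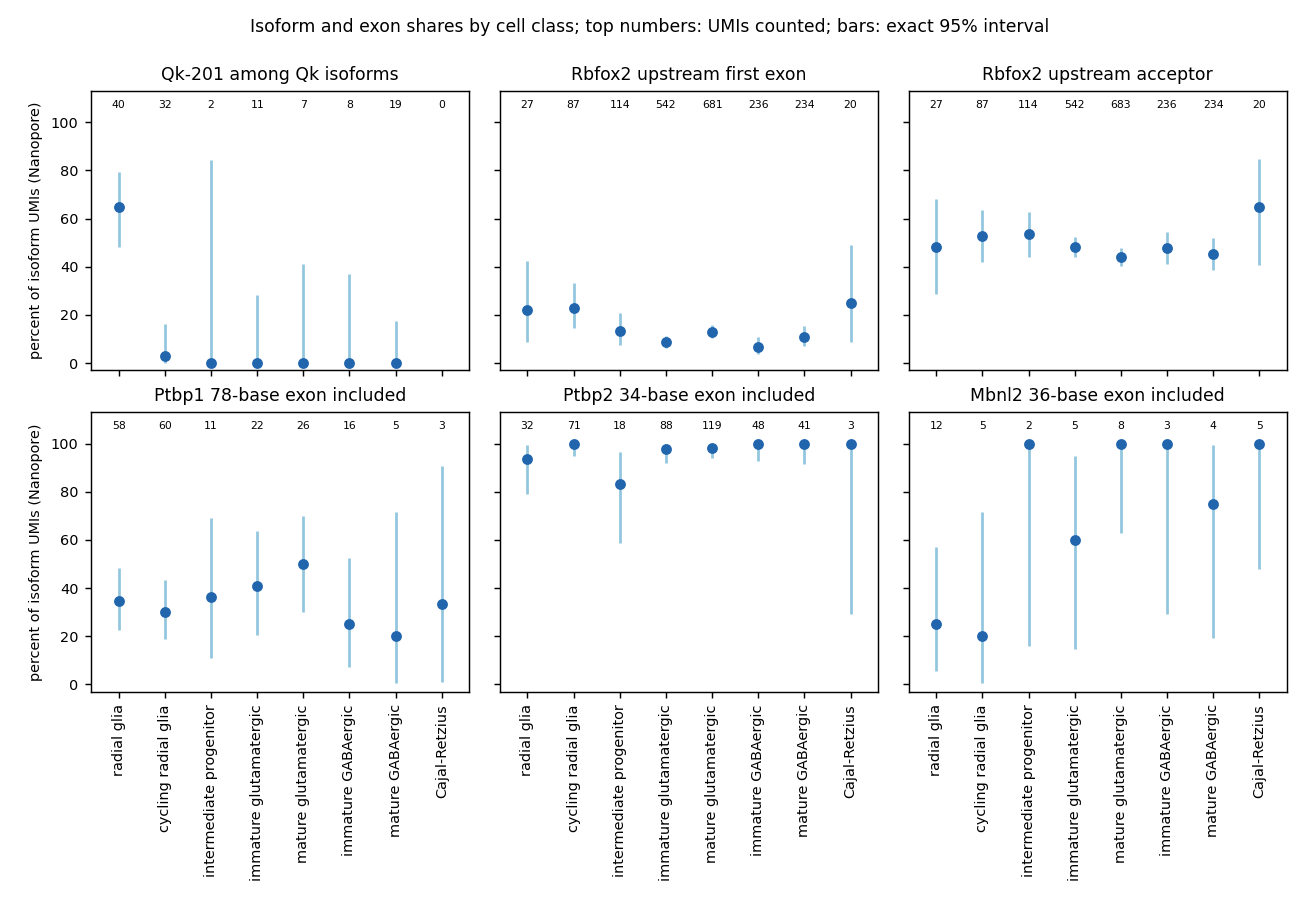
Share of isoform UMIs (y axis, percent of Nanopore UMIs that could tell) in the 8 cell classes (x axis), aliquots summed; bars are exact 95% intervals and the number above each point is the UMIs counted. Qk-201 is 65.0% in radial glia and at most 3.13% in the other classes with Qk UMIs, which hold 2 to 32 each. The Ptbp1 and Rbfox2 acceptor shares overlap between classes.

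In the test of isoform usage over genes with several isoforms above the filter, only Ptbp1 and Rbfox2 of the 10 genes could be tested, and 0 of the 2 were called in any of the 6 comparisons, with 0 at an unadjusted p under 0.05. Of the 456 genes tested, 21.3% were called for mature glutamatergic neurons, 17.1% for mature GABAergic neurons and 6.8% for intermediate progenitors against radial glia, 2.41% and 1.75% for mature against immature glutamatergic and GABAergic neurons, and 1.54% for mature GABAergic against mature glutamatergic neurons. Cassette exons were tested where each class had at least 20 UMIs, which left 3, 2, 2, 6, 1 and 2 exons of these genes in the same order of comparisons. Of these 0 were called and 0 had an unadjusted p under 0.05, where 13.1%, 10.0%, 6.53%, 1.38%, 1.64% and 0.323% of all cassette exons were called.

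Isoform UMIs as a share of Illumina UMIs differed between the genes. The isoform tables hold only UMIs whose exon structure matched an annotated isoform. Their barcodes and UMIs had been assigned with the Illumina data of the same cells as a guide. The comparison therefore sets a part against a whole and is not one of independent measurements. Rbfox2 gave 564 and 2649 Illumina UMIs and 330 and 1614 isoform UMIs (58.5% and 60.9%), Srrm4 kept 65.8% and 68.5%, and Ptbp1 57.3% and 53.8%. Rbfox1 gave 192 and 938 Illumina UMIs but 2 and 22 isoform UMIs (1.04% and 2.35%), and Nova2 86 and 349 Illumina UMIs with no isoform. In a test of the 4 libraries, 5 of 9 genes were called, all lower on Nanopore, against 50.5% of all 9855 genes (30.3% lower): Rbfox1 (log2 fold change -4.62, SE 0.23, adjusted p = 0.000102), Nova1 (-2.66, adjusted p = 0.0153, on 0 and 5 Nanopore UMIs), Qk (-1.64, SE 0.16, adjusted p = 0.000852), Rbfox3 (-1.20, adjusted p = 0.0145) and Ptbp2 (-0.58, SE 0.11, adjusted p = 0.00664). Under DESeq2 Nova1 (0.0666) and Ptbp2 (0.0604) did not pass. With the aliquot as a block 8 were called, adding Rbfox2 (0.20, adjusted p = 0.00245), Srrm4 (0.37, 5.44e-05) and Mbnl2 (-1.16, 0.00463), against 70.7% of all genes with it, and Ptbp1 was at 0.06 without the block (adjusted p = 0.823). The isoform shares of a gene with a low percentage rest on few UMIs, and the cause of the uneven percentages was not tested.

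**Figure D4:**
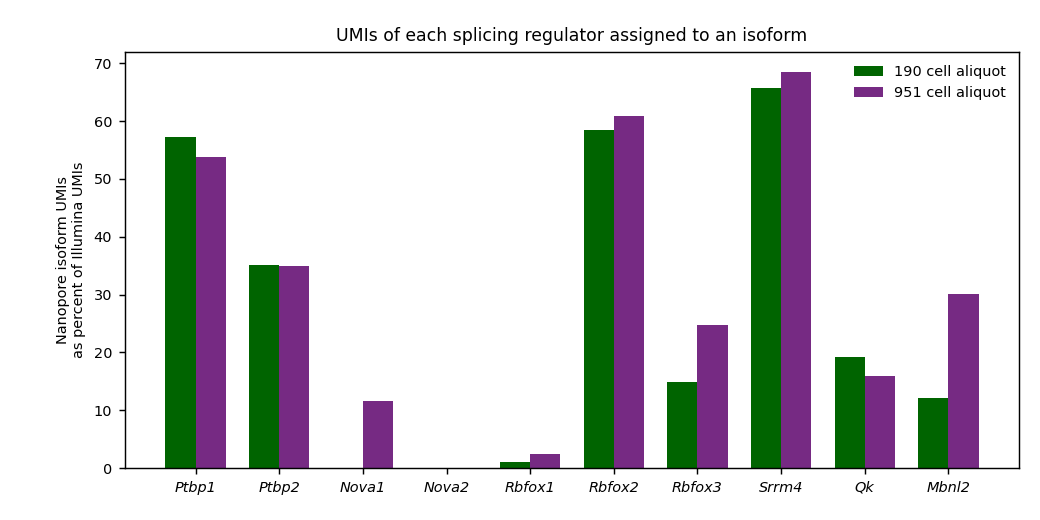
Nanopore isoform UMIs as a percent of Illumina UMIs (y axis) for each of the 10 genes (x axis) in the 190-cell and 951-cell aliquots. Srrm4, Rbfox2 and Ptbp1 lie between 53.8% and 68.5%, and Rbfox1 is at 1.04% and 2.35%.

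Other regulators of splicing and RNA stability were taken from a list of 32 genes, of which 26 were tested on Illumina sums. Against radial glia, 15 were called in mature glutamatergic neurons (9 higher, 6 lower), 16 in mature GABAergic neurons (10 higher, 6 lower) and 10 in intermediate progenitors (9 higher, 1 lower), with the background shares given above. The median log2 fold change of the list was 0.09, 0.48 and 0.52, against -0.04, -0.07 and -0.10 over all genes. Zfp36l1, which binds AU-rich elements and speeds mRNA decay, was at 165.3 CPM in radial glia (224 UMIs). It fell to 0.37 CPM in mature glutamatergic and 1.60 in mature GABAergic neurons, on 2 UMIs each. Intermediate progenitors held 0 UMIs (at least 22.0-fold lower there, against a floor of 3 UMIs). Celf3, a neuronal CELF protein, was higher by 3.60, 3.83 and 3.33 on the log2 scale in the 3 comparisons, and Celf5 by 3.55 and 3.68 in the mature classes. The neuronal protein Elavl3 was higher by 2.15 in intermediate progenitors.

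Between mature GABAergic and mature glutamatergic neurons 7 of the 26 were called (3 higher, 4 lower), against 9.45% of all genes. Among them were Rbm24 (0.80 against 14.8 CPM, on 1 and 56 UMIs), Khdrbs3 (log2 fold change -1.90) and Celf4 (1.17). Between mature and immature classes 1 of 26 was called in glutamatergic neurons, Khdrbs2 (1.02), against 3.84% of all genes. In GABAergic neurons 2 were called, Khdrbs2 (1.52) and Elavl2 (1.19), against 2.87% of all genes. With the block 5 were called in glutamatergic neurons, against 12.0% of all genes with it. Khdrbs2 and Khdrbs3 encode Sam68-like proteins that regulate neurexin exons. In the isoform usage test 5 of the list could be tested, and Elavl2 and Celf2, both RNA-binding proteins of neurons, were the ones called, with 2, 1 and 0 calls against radial glia, 0 between mature and immature classes and 1 between the mature classes. Of the cassette exons of the list 11, 8, 5, 17, 13 and 14 could be tested in the 6 comparisons, and 3, 1, 0, 0, 0 and 0 were called, with 0, 2, 0 and 2 at an unadjusted p under 0.05 in the last 4. The shares of all genes and all cassette exons called are those given above with the isoform and exon tests. A 39-base exon of Elavl2 (chr4:91254141-91254179) was included in 6 of 39 UMIs in radial glia (15.4%, 5.86 to 30.5%) and 33 of 34 in mature glutamatergic neurons (97.1%, 84.7 to 99.9%), which passed the test. A 41-base exon of Celf2 (chr2:6554280-6554320) went from 3 of 29 (10.3%) to 34 of 53 (64.2%) between the same classes and passed as well, as did a 144-base Celf2 exon (80.6% to 95.4%) and, for mature GABAergic neurons, a 377-base noncoding Tial1 exon (8.16% to 42.4%). Across platforms, 17 of 27 were called (63.0%), 16 of them lower on Nanopore, against 50.5% of all genes (30.3% lower).

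Known targets of these regulators were taken from a list of 15 genes, of which 13 were tested. Against radial glia, 10 were called in mature glutamatergic neurons (5 higher, 5 lower), 8 in mature GABAergic neurons (3 higher, 5 lower) and 5 in intermediate progenitors (2 higher, 3 lower). In the same order 33.8%, 31.2% and 18.2% of all genes were called, and the list medians were 0.18, -0.08 and -0.05. None passed between mature and immature neurons (0 in glutamatergic or GABAergic neurons, with 2 and 1 at an unadjusted p under 0.05). The block called 2 and 1 there, against 12.0% and 6.06% of all genes with it. Rest, the repressor of neuronal genes whose transcript is a target of Srrm4, fell by 2.57 on the log2 scale in mature glutamatergic neurons and from 38 to 0 UMIs in intermediate progenitors (at least 3.74-fold). The actin-binding Flna fell by 1.93 in mature glutamatergic neurons, and tropomyosin Tpm2 fell to 0 UMIs from 29 in mature GABAergic neurons (at least 4.98-fold). Dab1, the reelin signalling adaptor, was higher in mature glutamatergic neurons (1.69) and lower in mature GABAergic neurons (-2.43) and intermediate progenitors (-3.44) than in radial glia, and it was the target called between the mature classes (-4.13, adjusted p = 1.93e-11). Dlg4 (1.30) and Gabbr1 (0.89) were higher and Nasp (-1.002) and Pkm (-0.47) lower in mature glutamatergic neurons, Gabbr1 (1.30) and Src (1.08) higher and Nasp (-0.86) and Pkm (-0.76) lower in mature GABAergic neurons, and Enah (0.90) higher in intermediate progenitors.

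Pkm, the pyruvate kinase gene whose exclusive exons are known targets of PTBP1, changed its isoforms in all 6 comparisons (adjusted p from 1.76e-20 to 0.0168), and 3 of the target genes could be tested. Pkm-201 holds the downstream 167-base exon (chr9:59675568-59675734), the M2 form, and Pkm-202 the upstream one (chr9:59675029-59675195), the M1 form. Pkm-201 made up 97.4% of Pkm UMIs in radial glia (125 of 133 and 811 of 828), 87.5% in cycling radial glia, 69.3% in intermediate progenitors, 52.8% in immature GABAergic neurons, 30.9% in immature glutamatergic neurons, 26.9% in mature GABAergic neurons and 13.8% in mature glutamatergic neurons (28 of 235 and 169 of 1195). Mean Ptbp1 levels in the same 7 classes were 92.8, 90.1, 51.0, 28.4, 23.7, 16.0 and 12.9 CPM. The single aliquots did not keep this order. In the 951-cell aliquot, radial glia (80.3) did not lie above cycling radial glia (80.5). Immature glutamatergic neurons (25.0) lay above immature GABAergic (21.8) there, and mature glutamatergic (14.8) above mature GABAergic (11.2). In the 190-cell aliquot, intermediate progenitors and immature GABAergic neurons were both at 35.1. The Pkm-201 share and the Ptbp1 level were measured in the same cells, and no test was made of their relation. Nasp, the other target called, included a 975-base exon (chr4:116610403-116611377) in 88.3% of UMIs in radial glia, 55.1% in mature glutamatergic neurons (adjusted p = 4.35e-09), 53.3% in mature GABAergic neurons (4.13e-05) and 7 of 10 and 14 of 32 UMIs in intermediate progenitors (1.61e-05). Across platforms 10 of the 15 targets were called (66.7%), 2 higher and 8 lower on Nanopore, against 50.5% of all genes (30.3% lower).

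Genes whose level followed each regulator most closely were found by Pearson correlation of log2(CPM + 10) over the 14 sums of class and aliquot among 8110 genes, a description with no test, since the sums share cells, library and depth. Rbfox2 was closest to Ttc3 (r = 0.99), Celf3 (0.98) and the migration gene Dcx (0.98), Rbfox1 to Clmp (0.96), Rtn4 (0.95) and Jph4 (0.94), and Srrm4 to Auts2 (0.96), Marcksl1 (0.96) and Podxl2 (0.95). Ptbp1 was closest to Tsen15 (0.98), Rpl19 (0.97) and the E protein gene Tcf3 (0.95), Ptbp2 to Slain1 (0.92), Hdgfrp3 (0.91) and Celf4 (0.89), and Nova2 to 2010107G23Rik (0.94), the tubulin gene Tuba1a (0.92) and Srgap1 (0.92). Qk was closest to Rrp8 (0.91), the glial enzyme gene Glul (0.91) and Efhd2 (0.90), and Rbfox3 to Clvs1 (0.88), Zfp637 (0.87) and Scrt2 (0.86). For Mbnl2 the closest were Ube2m (0.89), Naa20 (0.88) and Gm10094 (0.87), and for Nova1, with few UMIs, Zfp383 (0.78), Usp40 (0.77) and Gareml (0.75).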

How the data were processed

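The authors captured cells on the 10x Chromium system (v2 chemistry), counted Illumina UMIs per gene with Cell Ranger 2.0 on mm10, and assigned Nanopore reads to Gencode isoforms of the same exon structure with minimap2 and Sicelore. The deposited values are UMI counts per gene and cell, or per isoform and cell, not normalized. Nanopore barcodes and UMIs had been matched to those that Illumina found for that gene or region. Nanopore sums per gene are sums of isoform-assigned UMIs. Total counts per library and the cell filter are given with the results; precision is limited by the number of UMIs, and intervals (exact Clopper-Pearson) and limits at a count of 0 (3 counts) cover counting error only. PCR duplicates had been collapsed by UMI.

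Cells were clustered with Seurat 5.3.0 after the methods of the study (2000 variable genes, integration of the aliquots, 11 dimensions), at a resolution of 0.8 chosen here, leaving the listed regulators out of the variable genes. Clusters were named by markers fixed for the work, with thresholds set after the clusters were seen. Doublet calling (Scrublet in scanpy 1.11.5) marked 3 and 4 cells, which were kept in the main analysis. Counts were summed by class and aliquot and tested with edgeR 4.0.16 (R 4.3.3): the quasi-likelihood test (TMM, filterByExpr, robust) for levels and platforms, diffSpliceDGE for isoform usage and a likelihood ratio test of inclusion and skipping counts for cassette exons. Benjamini-Hochberg adjustment was made within each comparison over all features tested, with a threshold of 0.05. DESeq2 1.42.0 and the other alternatives are covered in the closing section. Each kind of test was also run on simulated data, which held no effect shared within an aliquot. The contrast of mature-immature differences and the aliquot term were not simulated. Exon structures came from Gencode vM21, which matched 31969 of 31986 isoforms and all 37 of the regulators. The study's own per-cell isoform test was not used, since cells are not replicates.

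The aliquot number marks a shared library, and class sums of the same aliquot deviated together in all 21 pairs of classes (correlations 0.131 to 0.374, median 0.229; platforms 0.596), so the aliquot was tried as a replicate block. The members and lists were chosen with earlier results of these data known. Named genes were the 10 regulators, their isoforms of at least 5% and coding cassette exons with at least 20 UMIs, the 3 largest called changes of the list of other regulators per comparison, the called genes of the target list (some are not reported here) and the 3 most similar genes; the first exons, acceptor choices, Qk tails, paralogue exons and the exons of listed genes were chosen after their values were seen.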

Additional observations from a re-analysis of the deposited data

Results flagged for a closer look

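The level of Rbfox1 differed between mature GABAergic and mature glutamatergic neurons by -1.52 on the log2 scale (adjusted p = 0.000334), so that its difference from radial glia was not the same in the 2 kinds of neuron. The level of Qk differed between the same classes by 2.82 (adjusted p = 1.30e-06), with the fall from radial glia larger in glutamatergic than in GABAergic neurons. The difference of Rbfox3 between the mature and immature class was larger in GABAergic than in glutamatergic neurons by 2.66 (adjusted p = 0.0107), a contrast added after the values were seen, in which the GABAergic classes hold different kinds of neuron. Each was picked out by a test of the difference between the groups, and the causes were not tested.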

How the results depend on the processing

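Of 287 values of called results under alternatives, 268 were called again in the same direction and 19 had the same direction without the call; of 819 values in all, 22 changed sign, none of them for a called result. All alternatives rest on the same 2 aliquots, and leaving one out leaves a lone sum per compared class, assumed to vary like the other classes. The alternatives without shared barcodes, without cells holding markers of other cell types, the contrast of mature-immature differences between GABAergic and glutamatergic neurons and the aliquot term were chosen after seeing the data. With the aliquot as a replicate block, members called went from 0 to 1 and 1 to 3 for mature against immature glutamatergic and GABAergic classes, 1 to 4 for their difference and 5 to 8 for the platforms; all genes called went from 291 to 913, 218 to 460, 164 to 416 and, between mature classes, 717 to 1183; genes with isoform usage called went from 11 to 42, 8 to 14 and 7 to 22, and exons called between mature classes from 3 to 8. The block changed no other call of these genes than those given with the results. With DESeq2 all genes called fell from 2568 to 1578, 2367 to 1486 and 1380 to 733 against radial glia, from 291 to 94 and 218 to 104 for mature against immature classes, 717 to 333 between mature classes and 4976 to 3071 for the platforms, and members called from 1 to 0 for mature against immature GABAergic neurons, as without doublet calls (0). Nanopore gene sums, in which fewer of these genes have counts, called 4, 4 and 3 members against radial glia and 1 for mature against immature glutamatergic neurons. With no filter, isoform usage called 1 member each for mature glutamatergic and mature GABAergic neurons against radial glia, and 202 genes for the first comparison, 1 and 0 for mature against immature classes. Regulators among the variable genes gave 11 genes with isoform usage called between mature classes, and resolution 0.6 gave 13 there and 17 for mature against immature glutamatergic neurons. Exons called with at least 50 UMIs were 102, 34 and 15 against radial glia, with no exon of the members left there, and 9 between mature classes, where the minimum of 10 gave 5 and the settings with regulators as variable genes, without doublets and without cells holding markers of other cell types gave 6 each. The other causes were not tested.

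Without either aliquot in turn, members called ranged from 4 to 8 for mature GABAergic neurons against radial glia, 0 to 1 for mature against immature GABAergic neurons, 1 to 2 between mature classes, 0 to 2 for the contrast of these differences and 0 to 1 for isoform usage of mature GABAergic neurons against radial glia. All genes called ranged from 1045 to 2059, 723 to 2078, 397 to 984, 40 to 101, 37 to 146, 183 to 436 and 23 to 114 in the order of the 6 comparisons and the contrast of these differences. Isoform usage calls ranged from 30 to 103, 15 to 81, 5 to 26, 0 to 2, 0 to 2 and 0 to 6, and exon calls from 18 to 136, 5 to 59, 3 to 25, 1 to 10, 0 to 9 and 0 to 4, the lower count each time without the 951-cell aliquot.

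Values that changed sign under some alternative were all short of the threshold there and in the main test. Ranges are over leaving out either aliquot in turn. For Mbnl2 they were -1.20 to 0.99 for mature GABAergic neurons against radial glia (0.39 with DESeq2), -1.67 to 0.21 for intermediate progenitors against radial glia, -0.75 to 0.62 for mature against immature glutamatergic neurons (-0.24 with the replicate block, -0.26 at resolution 0.6) and -0.0019 to 2.31 for mature against immature GABAergic neurons. Qk ranged from -0.70 to 0.96 for mature against immature glutamatergic neurons (0.0586 with DESeq2) and from -0.73 to 2.34 for the contrast of these differences. Srrm4 ranged from -0.13 to 0.0566 for mature against immature glutamatergic neurons and -0.20 to 0.52 between mature classes, Ptbp1 from -0.49 to 0.66 between mature classes and -0.33 to 0.0495 for the contrast of these differences, and Ptbp2 from -0.21 to 0.0361 for mature against immature GABAergic neurons (0.17 with Nanopore sums). Between platforms Ptbp1 ranged from -0.15 to 0.33 without single libraries (-0.0628 without the smaller Nanopore library). The log2 odds of the Rbfox2 40-base exon were -1.36 and -0.85 without doublets against radial glia (mature glutamatergic, intermediate progenitor) and ranged from -1.15 to 5.43 for mature against immature GABAergic neurons and -1.08 to 3.997 between mature classes.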
